A study of Drosophila melanogaster with 4 samples.

Results

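Mitochondrial ribosomal protein genes were examined in larval heads of Drosophila melanogaster with and without a glial tumour. They were taken as the protein-coding genes whose symbols start with mRpL, for the large subunit of the mitochondrial ribosome, or mRpS, for the small subunit. The rule found 73 genes, 47 mRpL and 26 mRpS, among the 11880 genes of the expression table, of which 10835 were protein-coding. RefSeq lists 73 fly genes with such symbols, and all 73 were in the table. The small-subunit genes tko and bonsai have other symbols, and their values are given beside those of the 73.

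The mitochondrial ribosome translates the few messenger RNAs of the mitochondrial genome, which encode core subunits of the respiratory chain and of ATP synthase. Its ribosomal RNAs are transcribed inside the organelle, whereas all of its proteins are encoded in the nucleus, made by cytoplasmic ribosomes and imported. In flies, mutation of tko, the gene of the small-subunit protein S12 of the decoding centre, gives slow development and seizures.

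Poly-A RNA was sequenced from 4 groups with 1 library each, all under one batch label. All carried the glial driver repo-Gal4, the temperature-sensitive repressor tub-Gal80[ts] and UAS-myrRFP, a membrane-bound red fluorescent protein. Control larvae had no further transgene, and Glioma larvae added UAS-dEGFR[L] and UAS-dp110[CAAX], forms of the EGF receptor and of the PI3K catalytic subunit. The remaining groups carried everything the Glioma group did and, in addition, either UAS-Ca-alpha1T-RNAi, against a T-type calcium channel, or UAS-Slo-RNAi, against the calcium-activated potassium channel gene slo. Eggs were laid over 3 days at 25 °C, and larvae spent 5 days at 29 °C before dissection. The driver acts in glia, while the RNA came from whole heads, so fewer cells of a type and less RNA per cell cannot be told apart. The number of larvae behind each library is not known here.

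Total counts were between 31594447 and 38826243 per library. Counts were scaled between libraries by TMM, which sets the typical gene to no change, and are given as CPM, counts relative to the scaled size of the library. With no replicates, nothing was tested. Ratios between libraries carry a 95% interval that covers counting error only, and every such value describes these 4 libraries. A gene was called different when the ratio was at least 1.5-fold, its interval excluded equality and 1 or both libraries had at least 10 counts. Egfr was at 182 CPM in Control and 897, 962 and 651 CPM in Glioma, Ca-alpha1T RNAi and slo RNAi, and Pi3K92E was at 98.6, 903, 880 and 373 CPM. Ca-alpha1T was at 12.9, 19.1, 16.6 and 17.8 CPM, a log2 ratio of -0.20 (-0.36 to -0.04) for its own RNAi library against Glioma. For slo the levels were 23.0, 34.2, 33.2 and 25.0 CPM, a log2 ratio of -0.45 (-0.59 to -0.32) for slo RNAi against Glioma. Reads of a transgene and of the native gene cannot be told apart in these counts. Of 10 neuron, 10 glia and 8 neuroblast markers, none was at 3 counts or fewer in any library.

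All 73 genes were expressed, at similar and moderate levels, which was clearest per unit of length. The mean TPM (the authors' length-corrected transcript share) over the 4 libraries had a median of 31.1 and ran from 20.4 to 72.7, a 3.57-fold range, with quartiles of 25.1 and 40.3. Large-subunit genes had a median of 29.7 TPM and small-subunit genes one of 32.8 TPM. By comparison, the median in Control was 136 TPM for 64 nuclear genes of the respiratory chain and ATP synthase and 2011 TPM for 87 cytoplasmic ribosomal protein genes, against 32.4 TPM for the 73. Over all 11880 genes the median in Control was lower, at 14.2 TPM. Together the 73 genes made up 0.23% to 0.26% of all TPM in each library. Even the least counted member had 204 counts or more in each library, so that depth was sufficient for an interval on every gene.

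The highest mean TPM belonged to mRpS7, a protein of the head of the small subunit, at 73.3 in Control, 69.6 in Glioma, 77.1 in Ca-alpha1T RNAi and 70.8 in slo RNAi. Next came mRpL12, the protein of the flexible stalk that recruits translation factors, with a mean of 64.6 TPM, followed by mRpS5 with 60.4, mRpS9 with 59.5, mRpL30 with 55.8 and mRpL33 with 55.6. At the other end were mRpL10 with 20.4, mRpS2 with 20.6, mRpS35 and mRpS24 with 21.5 and 21.6, mRpL37 with 21.7 and mRpL35 with 21.9. The genes of the stalk protein mRpL12 and of mRpL10, the anchor that carries it on the ribosome, thus stood near opposite ends of the order. In bacteria the stalk holds several copies of L12 for each L10. Whether RNA levels go with such copy numbers was not tested. Neighbours in this order often changed places between libraries, as the plot of TPM by gene shows.

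**Figure D1:**
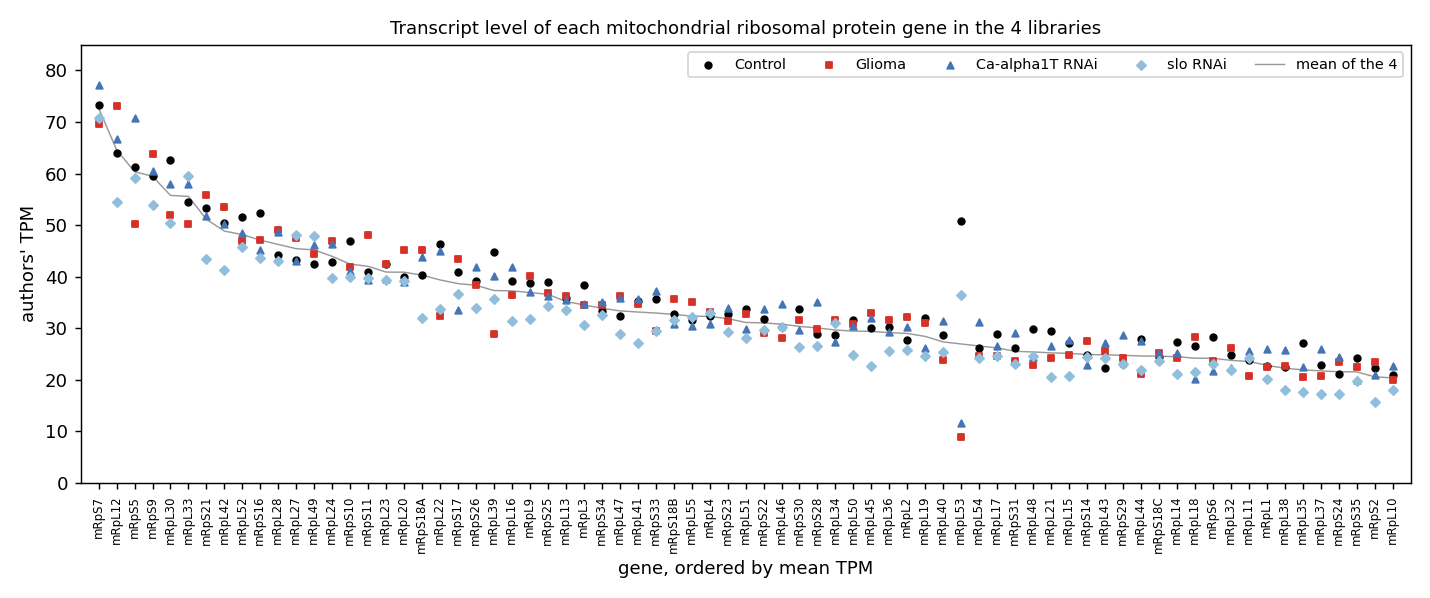
Each column is 1 of the 73 mitochondrial ribosomal protein genes, ordered by mean TPM, and each symbol is the authors' TPM (linear axis from 0) in 1 library. The means fall from 72.7 for mRpS7 to 20.4 for mRpL10, and the libraries of most genes lie close together, with mRpL53 the visible exception at 50.8, 8.93, 11.6 and 36.4 TPM.

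Across the 4 libraries most of the genes had the same highest and the same lowest library by scaled counts. The Glioma library was the highest for 63 of the 73 genes, where it was the highest for 30.2% of all genes with at least 10 counts in a library. Control was the highest for 7 genes (mRpL21, mRpL22, mRpL35, mRpL39, mRpL44, mRpL48 and mRpL53), slo RNAi for 3 (mRpL11, mRpL33 and mRpS5) and Ca-alpha1T RNAi for none. Ca-alpha1T RNAi was the lowest library for 55 of the 73, against 22.7% of all genes, slo RNAi for 11, Control for 7 and Glioma for none. The summed level was 1573 CPM in Control, 1864 in Glioma, 1386 in Ca-alpha1T RNAi and 1586 in slo RNAi. The differences were small for each gene: the highest library was a median of 1.41-fold above the lowest, against 1.52-fold over all genes, and the ratio passed 2-fold for 1 of the 73, mRpL53, and for 3433 of 11534 genes in all.

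This pattern holds relative to the typical gene and not in every unit. In the authors' TPM, where each library sums to the same total, the summed level was 2617 in Control, 2512 in Glioma, 2571 in Ca-alpha1T RNAi and 2304 in slo RNAi. The highest TPM was then in Glioma for 25 of the 73 genes, in Ca-alpha1T RNAi for 24, in Control for 21 and in slo RNAi for 3, against 12.5%, 51.9%, 26.9% and 8.70% of all genes. The lowest was in slo RNAi for 47, in Glioma for 12, in Ca-alpha1T RNAi for 11 and in Control for 3, against 27.0%, 49.4%, 5.57% and 18.0%. In TPM, therefore, no library was the highest for most of the genes, and slo RNAi in place of Ca-alpha1T RNAi was most often the lowest. On the same TPM scale the median of all genes stood at a log2 ratio of -0.26 in Glioma against Control and at 0.40 in Ca-alpha1T RNAi against Glioma. The member medians, -0.03 and 0.01, lay 0.24 above and 0.39 below it. Statements below that the genes were higher or lower therefore mean relative to the median gene of the same 2 libraries.

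**Figure D2:**
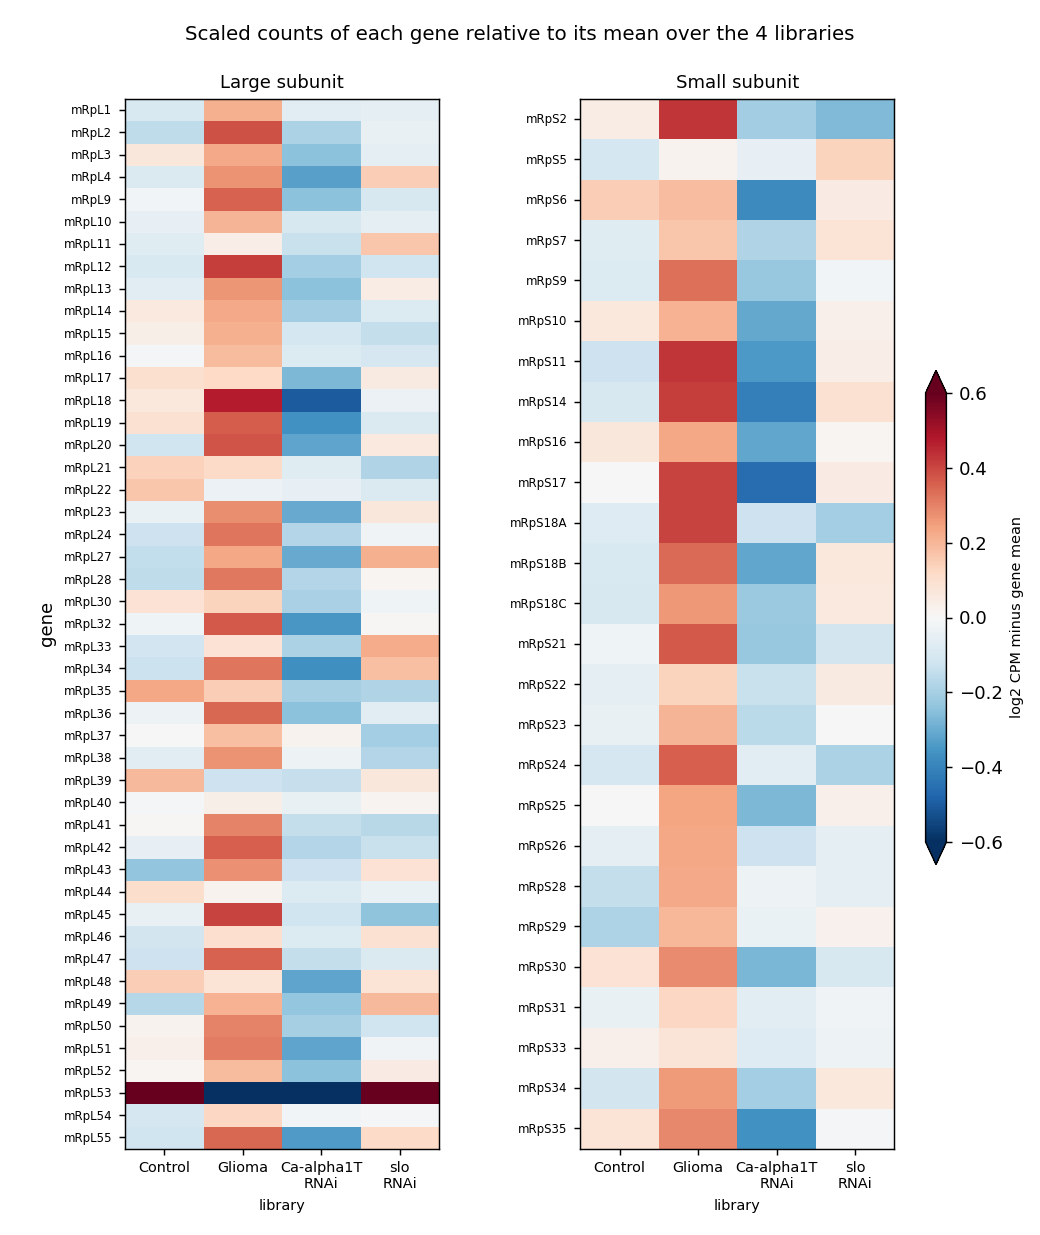
Each row is 1 gene, in order of its number within the large and the small subunit, and each column 1 library; the colour is the log2 scaled count (CPM) minus the gene's mean over the 4 libraries, with the scale ending at 0.6 in either direction. Glioma is the highest library for 63 of the 73 genes and Ca-alpha1T RNAi the lowest for 55, and mRpL53 runs past both ends of the scale.

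In Glioma against Control, which asks what the glial EGFR and PI3K transgenes went along with, the genes were modestly higher in Glioma. Their median log2 ratio was 0.29 (quartiles 0.17 and 0.40), where the median of all genes was 0.00 (quartiles -0.34 and 0.40). The ratio was above 0 for 66 of 73 genes, including all 26 of the small subunit and 40 of the 47 of the large. For 59 the interval lay wholly above equality, against 36.2% of all genes tested. No gene reached 1.5-fold higher, where 17.6% of all genes did, and 1 was at least 1.5-fold lower, mRpL53, against 12.7% of all genes. The shift was thus shared and small: without mRpL53, the 72 ratios ran from -0.32 to 0.55 and none passed 1.5-fold.

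At the top of this comparison stood mRpS11, a protein of the small-subunit platform (3R, 17072732 to 17073795, dm6). Its scaled counts were 21.9 CPM in Control, 32.1 in Glioma, 18.8 in Ca-alpha1T RNAi and 24.5 in slo RNAi. The log2 ratio of Glioma to Control was 0.55 (0.42 to 0.68). Close to it were mRpL2, whose bacterial relative lies beside the peptidyl transferase centre, with 0.53, mRpL43 with 0.51, mRpS14 with 0.51, mRpL12 with 0.51 and mRpL20 with 0.50. The stalk protein mRpL12 was at 34.8, 49.4, 32.2 and 34.2 CPM in the same order of libraries, so that Glioma stood alone and the other libraries lay within 3 CPM of each other. Its anchor mRpL10 had a log2 ratio of 0.26 (0.09 to 0.43). All 3 paralogues of bacterial S18 were higher in Glioma, with log2 ratios of 0.48 for mRpS18A, 0.43 for mRpS18B and 0.36 for mRpS18C. In mammals the protein of mRpS18A sits in the large subunit.

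The genes at the bottom were all of the large subunit. After mRpL53 came mRpL39, a protein related to threonyl-tRNA synthetase that bacterial ribosomes lack (3L, 14997981 to 14999666, dm6), with 37.4, 30.0, 29.8 and 34.3 CPM and a log2 ratio of -0.32 (-0.43 to -0.20). Its Glioma and Ca-alpha1T RNAi libraries were alike and its Control library the highest. Next was mRpL22, a protein of the polypeptide exit tunnel in bacteria, with 33.2, 28.9, 28.6 and 27.9 CPM and a log2 ratio of -0.20 (-0.32 to -0.08). For mRpL44, an RNase III relative, mRpL35 and mRpL48 the log2 ratios were -0.09, -0.08 and -0.07, with intervals that spanned equality. In the authors' deposited table, 3 of the 73 genes were higher and 1 was lower in Glioma at an adjusted p-value below 0.05, a p-value that no replicate of these groups stands behind. Of all genes in the authors' deposited table, 16.8% were higher and 12.3% lower, so the 73 were called less often than genes in general.

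**Figure D3:**
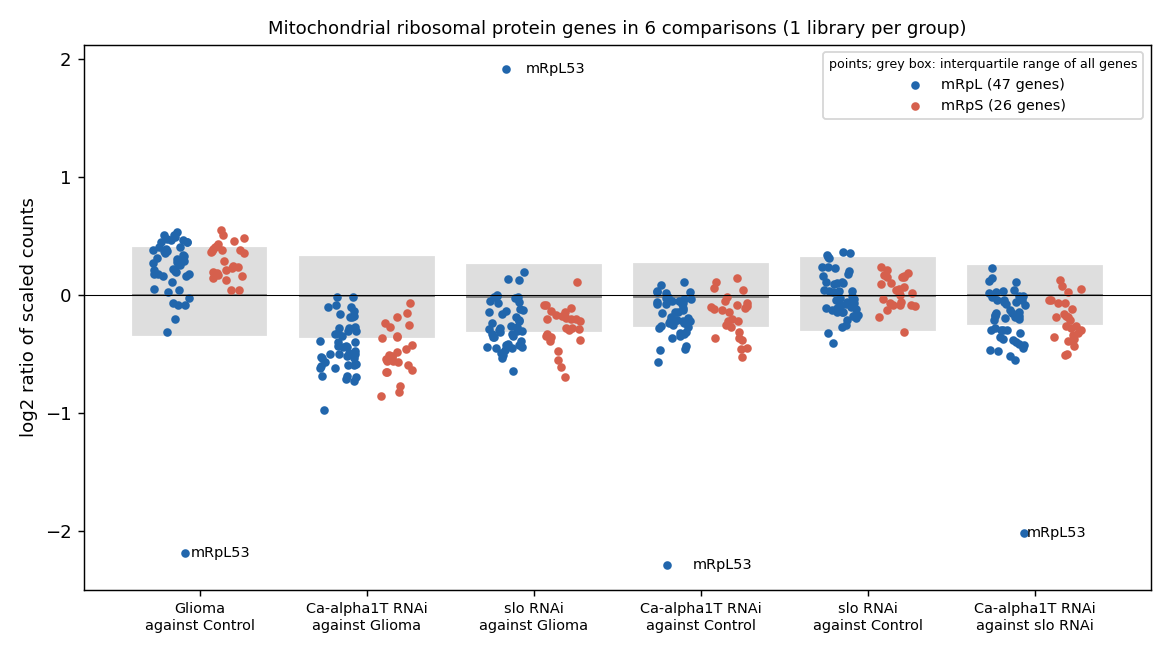
Each point is the log2 ratio of scaled counts of 1 gene between 2 libraries (blue, 47 mRpL; red, 26 mRpS), and each grey box the interquartile range of all genes tested, with a line at their median. The points lie mostly above 0 in Glioma against Control (66 of 73) and all below 0 in Ca-alpha1T RNAi against Glioma (73 of 73), and mRpL53 stands apart in 4 of the 6 comparisons.

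The comparison of Ca-alpha1T RNAi with Glioma asks what RNAi against the calcium channel went along with in the tumour-bearing larvae. It gave the largest median shift of the 6 comparisons. All 73 genes were lower in Ca-alpha1T RNAi, with a median log2 ratio of -0.47 (quartiles -0.58 and -0.28) beside a median of -0.01 (quartiles -0.35 and 0.32) for all genes. The interval lay wholly below equality for 64, against 35.4% of all genes tested. At least 1.5-fold lower were 18 of the 73, which is 11 of 47 mRpL and 7 of 26 mRpS, against 13.7% of all genes, and none was at least 1.5-fold higher, against 11.5%. This count rests on the scaling: with library totals in place of TMM it was 1, against 8.22% of all genes, and in TPM it was 0, against 4.31%, while all 73 genes stayed below the median gene with totals and 70 of 73 did in TPM. With TMM, 45.6% of all calls in this comparison were higher, and with totals 74.8%.

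Lowest of all was mRpL18, whose bacterial relative binds 5S ribosomal RNA (2R, 12756434 to 12757173, dm6). It was at 14.5 CPM in Control, 19.2 in Glioma, 9.81 in Ca-alpha1T RNAi and 13.5 in slo RNAi, and its log2 ratio of Ca-alpha1T RNAi to Glioma was -0.97 (-1.16 to -0.78). Glioma was its highest and Ca-alpha1T RNAi its lowest library, with Control and slo RNAi between them. Small-subunit proteins followed, with mRpS17 at -0.86 (-1.01 to -0.71), mRpS14 at -0.83 (-1.05 to -0.61) and mRpS11 at -0.78 (-0.92 to -0.64). For mRpS17 the levels were 21.4, 28.4, 15.6 and 22.2 CPM in the order Control, Glioma, Ca-alpha1T RNAi, slo RNAi. The next were mRpL19, of the interface between the subunits in bacteria, at -0.73 and mRpL32 at -0.71. The other called genes were mRpL4, mRpL9, mRpL12, mRpL20, mRpL34, mRpL36, mRpL51, mRpL55, mRpS2, mRpS18B, mRpS21 and mRpS35, with log2 ratios from -0.69 to -0.59. Just outside the 1.5-fold threshold were mRpL23, mRpL2 and mRpS6, at -0.58, -0.57 and -0.57.

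Genes with the smallest differences were again mRpL22 and mRpL39, both at -0.01, followed by mRpS5 at -0.07, mRpL40 at -0.08, mRpL53 at -0.10 and mRpL44 at -0.10. For each of these 6 the interval spanned equality. The level of mRpS5, among the highest of the 73, was 54.4, 59.4, 56.6 and 64.2 CPM, with slo RNAi the highest library. Of the stalk pair, mRpL12 had a log2 ratio of -0.62 (-0.73 to -0.51) and mRpL10 one of -0.30 (-0.48 to -0.13). Among the S18 paralogues the ratios were -0.53 for mRpS18A, -0.65 for mRpS18B and -0.48 for mRpS18C. In the authors' deposited table, 22 of the 73 genes were lower and 0 higher at an adjusted p-value below 0.05, against 12.5% and 10.5% of all genes.

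Against Glioma, the slo RNAi library showed the same direction for most genes and a smaller median. The median log2 ratio was -0.28 (quartiles -0.38 and -0.14), with -0.01 (quartiles -0.30 and 0.25) for all genes, and 67 of 73 genes were below 0. The interval lay wholly below equality for 51, against 34.2% of all genes tested. At least 1.5-fold lower were 3 genes, against 12.3% of all genes, and at least 1.5-fold higher 1, mRpL53, against 8.84%. Both RNAi libraries were set against the same Glioma library, so their values are not independent, and the direct comparison of the 2 RNAi libraries is given further on.

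The 3 lower genes were mRpS2, mRpL45 and mRpS18A. The scaled counts of mRpS2, whose bacterial relative joins the head and body of the small subunit, were 15.2 in Control, 19.8 in Glioma, 12.7 in Ca-alpha1T RNAi and 12.2 in slo RNAi, and its log2 ratio was -0.69 (-0.88 to -0.51). Both RNAi libraries of mRpS2 lay below Control. For mRpL45, which in mammals ties the ribosome to the inner membrane near the exit tunnel, they were 28.0, 38.2, 26.5 and 24.4, with a log2 ratio of -0.65 (-0.78 to -0.52). Those of mRpS18A were 17.2, 24.0, 16.6 and 15.8, with a log2 ratio of -0.61 (-0.77 to -0.44), whereas mRpS18B and mRpS18C stood at -0.28 and -0.20. Next were mRpS24 at -0.55, mRpL12 at -0.53 and mRpL18 at -0.51. On the other side, mRpL39 was at 0.19 (0.07 to 0.32), mRpL33 at 0.14, mRpL11, of the stalk base in bacteria, at 0.12, mRpS5 at 0.11 and mRpL48 at 0.00. At an adjusted p-value below 0.05, the authors' deposited table held 1 of the 73 genes as higher and 3 as lower, against 6.63% and 10.6% of all genes.

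The exception in 2 of these 3 comparisons, mRpL53, encodes a large-subunit protein found in mitochondria and not in bacteria. It had 1216 counts in Control, 240 in Glioma, 220 in Ca-alpha1T RNAi and 773 in slo RNAi, or 31.0, 6.80, 6.33 and 25.6 CPM. Control and slo RNAi were high and the other libraries low. The log2 ratios were -2.19 (-2.39 to -1.99) in Glioma against Control and 1.91 (1.70 to 2.13) in slo RNAi against Glioma. It lies on the forward strand of 2R, 13954195 to 13955664 (dm6), and CG33155 is annotated at the same start and end on the same strand. The only annotated transcript of mRpL53 has the same exons as 1 of the 3 transcripts of CG33155, so that all 829 of its exonic bases are shared, and the genes differ in the coding region assigned to them. Reads of this transcript cannot be assigned to either gene.

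CG33155 ran the other way, with 659, 1672, 1232 and 564 counts in the order Control, Glioma, Ca-alpha1T RNAi, slo RNAi. mRpL53 held 64.9%, 12.6%, 15.2% and 57.8% of the counts of the pair. The sum of both was 47.7, 54.2, 41.8 and 44.3 CPM, with Glioma the highest and Ca-alpha1T RNAi the lowest library. The log2 ratios of the sum were 0.18 (0.09 to 0.27) in Glioma against Control, -0.38 (-0.47 to -0.28) in Ca-alpha1T RNAi against Glioma and -0.29 (-0.39 to -0.19) in slo RNAi against Glioma. Those values fall inside the range of the other 72 genes, where mRpL53 alone fell outside it in the first and the last of them. How the counting divided reads between the pair was not tested.

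**Figure D4:**
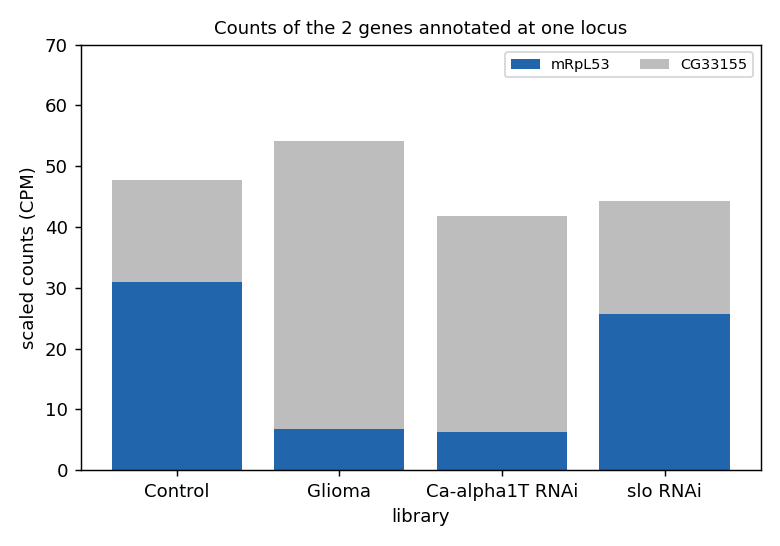
Bars give scaled counts (CPM, linear axis from 0) of mRpL53 (blue) and CG33155 (grey), stacked, in each of the 4 libraries. The part of mRpL53 is 31.0 in Control and 25.6 in slo RNAi but 6.80 in Glioma and 6.33 in Ca-alpha1T RNAi, while the stacked height stays between 41.8 and 54.2.

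Other members share sequence with neighbours to a lesser extent. In the annotation 43 of the 73 overlap an exon of another gene, 3 of them on the same strand, and 10 share over 10% of their exonic bases. The library kit keeps the strand of the RNA, and it is not known here whether the counting used it. The largest overlaps after mRpL53 were those of mRpS24 with TBC1d7 (55.3% of exonic bases, opposite strands), mRpS21 with CG8870 (48.0%, opposite), mRpL13 with CG10602 (35.2%, same strand) and mRpS14 with Naa15-16 (32.0%, opposite). CG8870 had 23 to 42 counts per library where mRpS21 had 474 to 773. For mRpS24 the summed counts of the pair gave log2 ratios of 0.14 in Glioma against Control and -0.04 (-0.18 to 0.10) in slo RNAi against Glioma, where mRpS24 alone had 0.46 and -0.55. For mRpS21 and CG8870 the sum was at -0.57 in Ca-alpha1T RNAi against Glioma, just short of the 1.5-fold that mRpS21 alone passed at -0.59. For mRpL13 and CG10602, on the same strand, CG10602 held at least 88.1% of the counts of the pair in each library. Their sum was at 0.08 in Glioma against Control, -0.13 in Ca-alpha1T RNAi against Glioma and -0.08 in slo RNAi against Glioma, where mRpL13 alone had 0.33, -0.51 and -0.22. The sum of mRpS14 and CG32533, which share 3.76% of the exonic bases of mRpS14 on the same strand, was at 0.14, -0.16 and -0.04, where mRpS14 alone had 0.51, -0.83 and -0.33. No sum was made for mRpS14 with Naa15-16, its larger overlap, or for the remaining members that share over 10%. TBC1d7 held 51.2% to 65.8% of the counts of its pair and CG32533 63.3% to 76.9%. On its own CG32533 was at -0.04, 0.12 and 0.11, and CG10602 at 0.05, -0.09 and -0.06. Where the partner holds most of the counts, the sum is drawn toward the partner's own ratio whatever the overlap. Such sums cannot show how far the overlap affected mRpS24, mRpL13 or mRpS14. How reads in these overlaps were counted was not tested.

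Set against Control, the RNAi libraries showed smaller differences. In Ca-alpha1T RNAi the median log2 ratio was -0.18 (quartiles -0.27 and -0.06), with 63 of 73 genes below 0, and 38 intervals lay wholly below equality, against 34.3% of all genes tested. The 1 gene at least 1.5-fold lower was mRpL53, against 8.45% of all genes, and none was at least 1.5-fold higher, against 11.2%. After mRpL53 the lowest were mRpL18 at -0.57 and mRpS6 at -0.53, and the highest were mRpS29, the fly relative of the GTP-binding protein DAP3, at 0.14, mRpS28 at 0.11 and mRpL43 at 0.11.

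In slo RNAi against Control the genes centred on no change, with a median of 0.00 (quartiles -0.11 and 0.16) and 37 genes above and 36 below 0. Intervals lay wholly above equality for 16, against 33.1% of all genes tested, and wholly below for 12, against 34.3%. No gene was called in either direction, where 13.3% of all genes were at least 1.5-fold higher and 11.7% at least 1.5-fold lower. The extremes were mRpL35 at -0.41, mRpL21 at -0.32 and mRpS2 at -0.31 on one side and mRpL49 at 0.37, mRpL27 at 0.36 and mRpL33 at 0.34 on the other.

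Between the RNAi libraries, Ca-alpha1T RNAi was lower than slo RNAi for 61 of 73 genes, with a median log2 ratio of -0.18 (quartiles -0.34 and -0.04). In 41 the interval lay wholly below equality, against 30.3% of all genes tested. Only mRpL53 was at least 1.5-fold lower, against 9.05% of all genes, and none was at least 1.5-fold higher, against 9.77%. Next to mRpL53 the lowest were mRpL34 at -0.55 and mRpL27 at -0.52, and the highest were mRpL37 at 0.23, mRpL38 at 0.14 and mRpS24 at 0.13. By library totals the median of the 73 was 0.05 and that of all genes 0.23, so the sign of this median turned with the scaling while its position below the typical gene did not.

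Within the ribosome the subunits differed little. The median log2 ratios of mRpL and mRpS genes were 0.28 and 0.32 in Glioma against Control, -0.44 and -0.51 in Ca-alpha1T RNAi against Glioma and -0.28 and -0.25 in slo RNAi against Glioma. Proteins with a bacterial relative can be told approximately by their numbers, up to 36 in the large and 21 in the small subunit. The 14 such small-subunit genes had medians of 0.39, -0.56 and -0.30 in these comparisons, and the 12 with higher numbers, most of which bacteria lack, 0.24, -0.36 and -0.20. Among large-subunit genes the 28 with bacterial numbers had 0.31, -0.49 and -0.29, and the 19 with higher numbers 0.27, -0.40 and -0.19. The 11 genes on the X chromosome had medians of 0.19, -0.43 and -0.28 and the 62 autosomal genes 0.31, -0.49 and -0.27. These splits are descriptions, and none was tested.

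The small-subunit genes with other symbols lay within the same range. For tko the levels were 21.1, 22.9, 17.8 and 18.5 CPM in Control, Glioma, Ca-alpha1T RNAi and slo RNAi, with log2 ratios of 0.12 (-0.02 to 0.26), -0.37 and -0.31. For bonsai, the gene of protein S15, they were 33.7, 37.7, 27.4 and 33.7 CPM, with 0.16 (0.05 to 0.27), -0.46 and -0.16. The ribosomal RNAs, which come from the mitochondrial genome, had ratios of the same sign as the protein genes in Glioma against Control and in Ca-alpha1T RNAi against Glioma, and of the opposite sign in slo RNAi against Glioma. The large one, lrRNA, had 2123165, 2773803, 2527975 and 4099979 counts and log2 ratios of 0.54, -0.11 and 0.79, so that slo RNAi was its highest library. The small one, srRNA, had 167, 204, 121 and 334 counts and log2 ratios of 0.44, -0.73 and 0.94. Both were read through a poly-A selection, which need not sample them evenly. The 12 protein-coding genes of the mitochondrial genome had medians of 0.27, 0.16 and 0.47, but they split in each comparison. Above 0 were 8, 6 and 9 of them, and below 0 were 4, 6 and 3. The log2 ratios of their summed counts were -0.07, 0.42 and 0.66, so sum and median differed in sign in Glioma against Control.

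The rest of the machinery for mitochondrial translation differed in the same direction by less. Over 10 translation factors the median log2 ratios were 0.22, -0.15 and -0.08 in Glioma against Control, Ca-alpha1T RNAi against Glioma and slo RNAi against Glioma. The elongation factor gene mEFTu2 passed 1.5-fold in Glioma, with 26.0, 42.6, 28.5 and 30.4 CPM and log2 ratios of 0.71, -0.58 and -0.48. Its paralogue mEFTu1 stood at 0.32, -0.58 and -0.51, whereas the initiation factor mIF3 was at -0.41, 0.11 and 0.00. Over 19 genes of mitochondrial tRNA synthetases and related proteins the medians were 0.22, -0.23 and -0.09. Among them GatB and GatC, of the amidotransferase that makes glutaminyl-tRNA, were at least 1.5-fold lower in Ca-alpha1T RNAi against Glioma at -0.60 and -0.59.

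Over 12 genes of mitochondrial transcription and RNA processing the medians were 0.23, -0.29 and -0.14. The gene mtTFB1, related to the methyltransferases of the small ribosomal RNA, had a log2 ratio of 1.05 in slo RNAi against Glioma on 293 and 166 counts, and rswl, of the mitochondrial RNase P, was at -0.60 there. Over 13 genes of protein import the medians were 0.12, -0.24 and -0.12, with Roe1, a cofactor of the matrix chaperone, at 0.33, -0.75 and -0.66. Among 11 regulators of growth and mitochondrial genes the signs were opposite, with medians of -0.21, 0.36 and 0.25. Myc, a driver of ribosome synthesis, was at 70.5, 60.9, 105 and 93.1 CPM and was at least 1.5-fold higher in Ca-alpha1T RNAi and in slo RNAi against Glioma (0.79 and 0.61). The transcription factor gene ewg was also higher in Ca-alpha1T RNAi (0.69), and Dref, which encodes a factor of growth-related promoters, was at -0.57 in Glioma against Control.

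Larger differences than those of the 73 were seen in the nuclear genes of the respiratory chain and ATP synthase. Of these 64 genes, 52 were at least 1.5-fold higher in Glioma against Control, against 17.6% of all genes. In Ca-alpha1T RNAi against Glioma 62 were at least 1.5-fold lower, against 13.7%. In slo RNAi against Glioma 6 were lower, a smaller share than the 12.3% of all genes. The medians were 0.74, -0.90 and -0.41. The 87 cytoplasmic ribosomal protein genes had medians of 0.34, -0.34 and -0.11, with 2 higher and 3 lower, 1 higher and 2 lower, and none at 1.5-fold. Of all genes, 17.6% were higher and 12.7% lower, 11.5% and 13.7%, and 8.84% and 12.3% in the same order. The mitochondrial ribosomal genes lay between these lists in Ca-alpha1T RNAi and in slo RNAi against Glioma and just below the cytoplasmic ones in Glioma against Control.

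**Figure D5:**
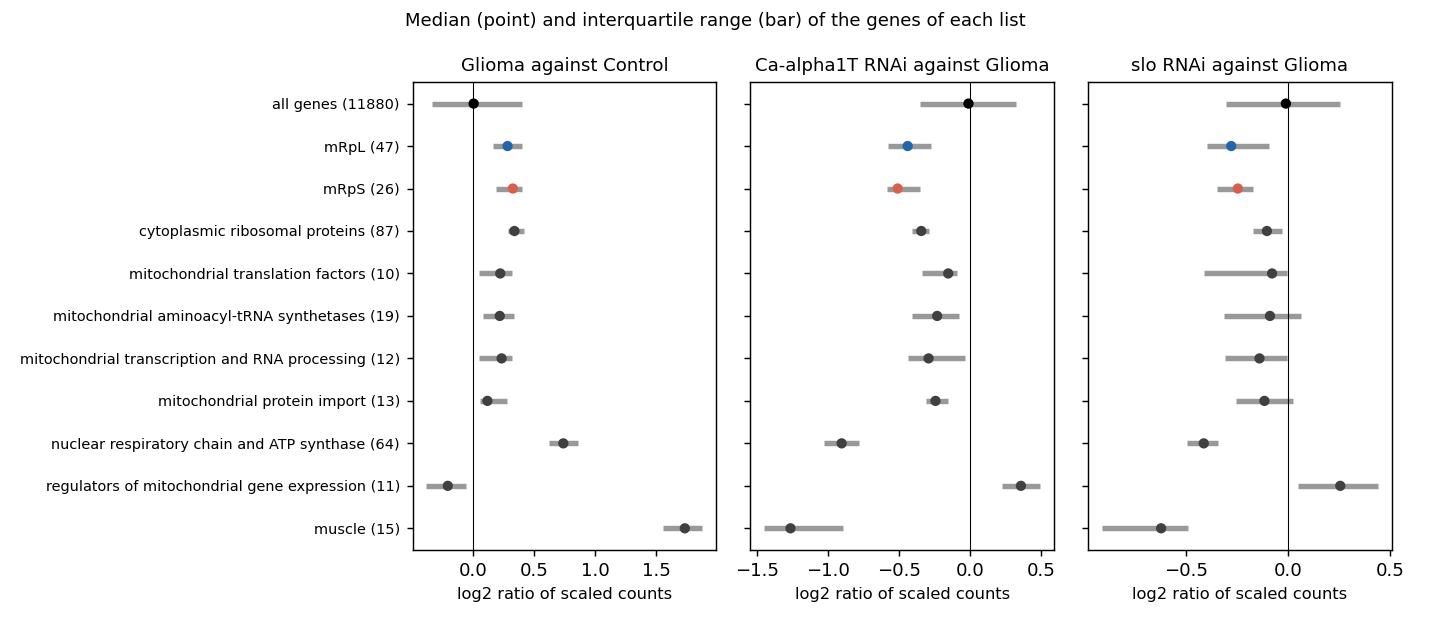
Points are the median log2 ratio of scaled counts of each gene list (number of genes in brackets) and bars its interquartile range, in 3 comparisons with separate axes. The mRpL and mRpS medians (0.28 and 0.32, -0.44 and -0.51, -0.28 and -0.25) lie close to each other and nearer to 0 than those of the respiratory chain (0.74, -0.90, -0.41) and of muscle (1.74, -1.27, -0.62).

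Markers of other tissues also differed between the libraries. All 15 muscle markers were at least 1.5-fold higher in Glioma against Control, against 17.6% of all genes. In Ca-alpha1T RNAi against Glioma 14 of the muscle markers were lower, against 13.7%, and in slo RNAi against Glioma 9 were, against 12.3%. The summed level of the muscle markers was 18382 CPM in Control, 62252 in Glioma, 24708 in Ca-alpha1T RNAi and 38185 in slo RNAi. Glioma was thus the highest library for their sum as for the sum of the mitochondrial ribosomal genes, and no muscle marker was at 3 counts or fewer. The sums for 10 neuron markers were 562, 373, 507 and 530 CPM, for 10 glia markers 1053, 1330, 1119 and 1106 CPM and for 8 neuroblast markers 765, 343, 677 and 563 CPM. For 9 salivary gland markers they were 23187, 2603, 1526 and 13969 CPM, for 9 fat body markers 17243, 9321, 14798 and 22706 CPM and for 9 gut markers 722, 3025, 587 and 3535 CPM. The gut sum in slo RNAi was mostly that of LysB and LysD, at 1065 and 2111 CPM. Of the 9 gut markers, 6 were at least 1.5-fold lower in slo RNAi than in Glioma, against 12.3% of all genes. The median log2 ratio of the 9 was -3.07. Glia markers split in Glioma against Control, with 6 above 0 and 4 below, and log2 ratios from -1.67 to 2.74. Salivary gland markers split in Ca-alpha1T RNAi against Glioma, with 4 above 0, 5 below and a median log2 ratio of -0.03. They also split in Glioma against Control, with 3 above 0, 6 below and a median of -3.95. In slo RNAi against Control 3 were above 0 and 6 below, with a median of -0.46. The part of these tissues in the differences of the mitochondrial ribosomal genes was not tested.

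Among these genes, length and level went weakly with the ratios. Across the 72 genes other than mRpL53, Spearman's rho between the log2 ratio and the length of the longest annotated transcript was -0.19 in Glioma against Control, 0.30 in Ca-alpha1T RNAi against Glioma and 0.03 in slo RNAi against Glioma. With the mean TPM it was 0.14, -0.11 and 0.12. Among the other comparisons, the value farthest from 0 was 0.28 for length, in Ca-alpha1T RNAi against slo RNAi. For mean TPM it was 0.29, in slo RNAi against Control. These are descriptions across genes of the same libraries, which are not independent replicates. By chromosome arm, 12 of the 73 genes lie on 2L, 12 on 2R, 17 on 3L, 21 on 3R and 11 on X, so they are spread over the genome and not in one cluster.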

How the data were processed

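The data are 4 poly-A RNA libraries from larval heads, 1 per group. The authors deposited whole-number read counts for 11880 genes, with FPKM and TPM that they computed, per the file headers. The same deposited table holds the authors' signed fold change, a score used for its sign only, and, for 5 comparisons, adjusted p-values. Tools listed in the submitters' processing notes, with no role given, are HISAT2 2.1.0, StringTie 2.1.3b, edgeR, Trimmomatic 0.38 and FastQC 0.11.7, and the build is dm6. Each listed gene has at least 1 count in every library. A further 8 columns of per-sample values were not used.

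TMM factors (edgeR 4.0.16, R 4.3.3) over the 4 libraries were 1.06 for Control, 0.909 for Glioma, 1.10 for Ca-alpha1T RNAi and 0.939 for slo RNAi. Log2 ratios used a prior count of 0.5, and intervals are exact conditional binomial ones (Python 3.11.15, scipy 1.17.1). PCR copies are not independent molecules, so intervals cover counting error only. Genes under 10 counts in each of the 2 libraries were left out, and a call needed at least 1.5-fold. The procedure was tested on simulated counts with counting error only, which leave out variation between animals and between libraries. Alternatives were DESeq2 1.42.0 size factors, library totals with and without the mitochondrial genome, FPKM and TPM plus 1, count minimums of 0 and 50, a prior count of 5 and a fold of 2.

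The members and gene lists were chosen with earlier results of these data known. Of 149 list entries, 143 matched a gene by symbol or by RefSeq synonym. Genes named in the 3 main comparisons are the 6 highest and 6 lowest members and any called at 2-fold, in the other comparisons the 3 at each end, for level the 6 at each end by mean TPM, and tko, bonsai, the S18 paralogues, the stalk pair and the mitochondrial ribosomal RNAs throughout. In other lists up to 4 genes of the largest ratio were named. The 18 genes called in Ca-alpha1T RNAi against Glioma, those just outside the threshold and the genes with Control or slo RNAi as the highest library were named after their values were seen, as were CG33155, the other overlapping genes, LysB and LysD. Coordinates come from the Ensembl annotation of the same assembly and were the same in RefSeq for all 73 members. Sequences were not used here.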

Additional observations from a re-analysis of the deposited data

How the results depend on the processing

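No paired analysis was possible because each group is 1 library, and for the same reason no library could be left out. DESeq2 size factors, the count minimums and the prior count each left all 54 values of named genes inside their counting intervals. Each count of calls stayed within 1.5 times the reported one. With DESeq2 size factors the member medians were 0.29 in Glioma against Control, -0.47 in Ca-alpha1T RNAi against Glioma and -0.28 in slo RNAi against Glioma. The scalings that do not centre on the typical gene moved the medians. In the order Glioma against Control, Ca-alpha1T RNAi against Glioma, slo RNAi against Glioma, Ca-alpha1T RNAi against Control, slo RNAi against Control and Ca-alpha1T RNAi against slo RNAi, the member medians were 0.064, -0.20, -0.23, -0.13, -0.18 and 0.046 with library totals. They were 0.080, -0.17, -0.12, -0.088, -0.052 and -0.033 with totals without the mitochondrial genome, 0.040, -0.17, -0.23, -0.13, -0.20 and 0.067 in FPKM plus 1, and -0.025, 0.0079, -0.16, -0.015, -0.20 and 0.18 in TPM plus 1. The all-gene medians moved alike, to -0.22, 0.26, 0.03, 0.03, -0.18 and 0.23 with totals, and the members' distance from them stayed at 0.23 to 0.30 in the first comparison and -0.47 to -0.39 in the second under each setting. With totals, 35.1% of all calls in Glioma against Control were higher (58.0% with TMM), 36% in slo RNAi against Control (53.3%) and 75.1% in Ca-alpha1T RNAi against slo RNAi (51.9%). Without the mitochondrial genome they were 59.6% in slo RNAi against Glioma (41.8%) and 66.9% in Ca-alpha1T RNAi against Control (56.9%).

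The 18 genes lower in Ca-alpha1T RNAi against Glioma became 1 with either kind of totals and in FPKM, and 0 in TPM and at 2-fold. Of all genes, 8.22% were lower there with totals, 7.76% without the mitochondrial genome, 5.77% in FPKM, 4.31% in TPM and 6.88% at 2-fold. The 3 lower in slo RNAi against Glioma became 0 with totals without the mitochondrial genome, in TPM and at 2-fold, and 1 in FPKM. The shares of all genes were 9.21%, 7.18%, 6.80% and 7.50% in that order. In slo RNAi against Control, 1 gene was lower with totals and in TPM, against 17.5% and 14.1% of all genes. In Glioma against Control 2 were lower in TPM, against 22.1% of all genes. Alternatives chosen after seeing the data, adding CG33155 to mRpL53 or leaving mRpL53 out, took the single calls of mRpL53 to 0. With CG33155 added, its log2 ratios turned to 0.18 in Glioma against Control and -0.29 in slo RNAi against Glioma. Of 535 values of named genes under all alternatives, 402 stayed inside their interval, 131 moved outside it and these 2 were counted as turned. Values near 0 could change sign among those that moved. For example, mRpL22, at -0.01 in Ca-alpha1T RNAi against Glioma, had 32.4 TPM in Glioma and 44.9 TPM in Ca-alpha1T RNAi. Among members not named there, ratios away from 0 also changed sign in TPM. For mRpL49, at -0.44 (-0.58 to -0.30), the TPM was 44.4 in Glioma and 46.1 in Ca-alpha1T RNAi. For mRpS7, at -0.35 (-0.45 to -0.24), it was 69.6 and 77.1. The median of all 73 in TPM plus 1 was 0.0079 in that comparison. The mitochondrial genome was found by its chromosome in the annotation, since the symbols in the table carry no prefix for it. Depth limits single ratios most for the least counted gene, mRpL34, whose interval was -0.95 to -0.43 in Ca-alpha1T RNAi against Glioma.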
